A study of Mus musculus with 12 samples.

Results

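Major histocompatibility complex (MHC) class II genes were followed in macrophages taken from bone marrow, as 10 members picked by gene symbol: H2-Aa, H2-Ab1, H2-Eb1, H2-DMa, H2-DMb1, H2-DMb2, H2-Oa, H2-Ob, Cd74 and Ciita. All 10 were found among the 23420 gene rows of the count table, and all 10 were among the 11806 genes that passed the filter on low counts and were tested. Macrophages had been sorted from nucleated marrow cells of 2 C57BL/6 mice, numbered 7 and 19. In each mouse the tibia had received mesenchymal stromal cells (MSCs, which form the stroma of the marrow) as a treatment, and the femur had none. Each bone of each mouse gave 3 RNA-seq libraries, which makes 12 in all. The series title places the work in the marrow of leukaemia, and the labels give no leukaemia status, age or time after treatment for either animal.

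Because each treated bone was a tibia and each untreated bone a femur, treatment and bone cannot be told apart. The labels do not say whether the 3 libraries of a bone came from separate sorts, so p-values measure the spread between libraries, which may be technical. Contrasts within 1 mouse compare 1 animal's bones and say nothing about other animals. Total counts ran from 9773455 to 14869150 per library. Summed macrophage markers (10 genes, among them Lyz2, Csf1r and Adgre1, listed as Emr1) ran from 15814 to 19514 CPM (counts scaled to a common library size), while summed marker levels of T and NK cells (10 genes) ran from 11.2 to 30.4 CPM. Neutrophil markers were high in all libraries, at 15886 to 28807 summed CPM over 8 genes.

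As background, MHC class II molecules are pairs of an alpha and a beta chain that show peptides from taken-up material to CD4 T cells. H2-Aa and H2-Ab1 encode the chains of the A molecule and H2-Eb1 the beta chain of E. C57BL/6 mice make no E alpha chain, so their E beta chain lacks its usual partner. Cd74 is the invariant chain, which fills the groove of a new class II molecule and carries it to the endosome. H2-DMa pairs with H2-DMb1 or H2-DMb2 to form DM, which swaps the last fragment of Cd74 for peptide, and H2-Oa pairs with H2-Ob to form DO, which restrains DM. Ciita encodes the co-activator that switches the family on. It binds no DNA itself and sits on a complex of RFX, CREB and NF-Y proteins at the promoter. Marrow macrophages and monocytes carry less class II than dendritic cells or B cells and raise it under interferon gamma.

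The 8 H2 genes lie in 1 region of chromosome 17 with other genes between them (GRCm38, the assembly that mm10 names), from the first base of H2-Oa at 34092340 to the last base of H2-Eb1 at 34316674. In order of position they are H2-Oa, H2-DMa, H2-DMb2, H2-DMb1, H2-Ob, H2-Ab1, H2-Aa and H2-Eb1, and H2-Aa alone is on the minus strand. Ciita lies on chromosome 16 from 10480059 to 10528418. The annotation lists 5 starts for Ciita. Dendritic cells, B cells and interferon gamma are known to use different Ciita promoters, and counts per gene do not separate them.

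RefSeq promoter windows of GRCm38.p6, from 250 bases before to 50 after the start, were searched for 7 of the 10 members. The set of windows used held none of that length for H2-Ab1 and Ciita, and Cd74 was left out of the search. Nothing is shown here of the promoters of these genes. Left out are the stretch of H2-DMb1, which lies in an annotated exon, and that of H2-DMa, which ends 194 bases before the start. The stretches below hold the box that class II promoters share. Each has 48 bases, reads 5′ to 3′ on the gene's own strand and ends at the Y box ATTGG, the NF-Y site. Capitals mark the Y box and, where present, the X1 box CCTAGNNAC or its core AGNNACNGA, bound by RFX, or the X2 box TGACGTCA, bound by CREB proteins. They lie at chr17:34287867-34287914 (H2-Aa, minus strand), chr17:34305765-34305812 (H2-Eb1), chr17:34238805-34238852 (H2-Ob), chr17:34092293-34092340 (H2-Oa) and chr17:34145116-34145163 (H2-DMb2), the last 4 on the plus strand. The last base of the H2-Oa stretch, in its Y box, is also the first base of the annotated H2-Oa gene.
H2-Aa: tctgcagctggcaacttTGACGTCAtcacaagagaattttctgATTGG
H2-Eb1: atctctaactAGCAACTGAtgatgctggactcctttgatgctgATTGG
H2-Ob: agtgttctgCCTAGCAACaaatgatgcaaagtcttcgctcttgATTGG
H2-Oa: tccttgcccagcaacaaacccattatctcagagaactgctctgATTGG
H2-DMb2: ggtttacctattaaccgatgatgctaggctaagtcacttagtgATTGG

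An X1 box or core followed by a Y box 10 to 40 bases further on was found in the windows of H2-DMb1, H2-Ob and H2-Eb1, and in 0.524% of all 32851 windows. The spelled-out arrangement was not found in the windows of H2-Oa, H2-DMa, H2-DMb2 and H2-Aa. In H2-Aa the X2 box began 74 bases and the Y box 48 bases before the start. Searched on both strands, ATTGG was in 37.4% of all windows, CCTAGNNAC in 3.91%, AGNNACNGA in 17.7%, TGACGTCA in 1.79% and the other X2 spelling, TGCGTCA, in 2.12%. CCTAGNNAC and AGNNACNGA overlap where both match, as in H2-DMb1. Of the spellings tied to interferon signalling, the gamma activated sequence TTCNNNGAA was in 8.3% of all windows. Among the members searched, H2-DMb2 alone held it. The interferon response element GAAANNGAA was in 8.56% of all windows and in none of the members searched. H2-Ab1, Cd74 and Ciita were not searched, so nothing is known here of their interferon sites. A match is a run of letters, and binding was not measured.

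Levels between genes were compared as CPM per kilobase of exon, the mean over all 12 libraries. Cd74 stood highest at 362 ± 92.0 (SD, n = 12), followed by H2-Aa at 188 ± 34.6, H2-Ab1 at 152 ± 27.6 and H2-Eb1 at 95.9 ± 17.8. The DM genes followed, with H2-DMa at 38.2 ± 3.28 and H2-DMb1 at 30.7 ± 2.04, and H2-DMb2 was far lower at 2.87 ± 0.431. Ciita stood at 3.17 ± 0.880, and the DO genes were the lowest members, at 2.16 ± 0.584 for H2-Oa and 1.46 ± 0.505 for H2-Ob. Mean ± SD overlapped between neighbours in this order for H2-Aa with H2-Ab1, Ciita with H2-DMb2, H2-DMb2 with H2-Oa and H2-Oa with H2-Ob. With the median transcript length in place of all exons, H2-Ob (2.73) passed H2-Oa (2.16), and the values of Ciita and H2-DMa became 6.16 and 61.5. H2-DMb1 and H2-DMb2 share sequence: of all 50-base windows of their transcripts, 27.2% of those of H2-DMb1 and 24.8% of those of H2-DMb2 also occur in another gene, so their reads could have been split or lost in counting. H2-Ea-ps, the E alpha pseudogene, had 0 counts in all 12 libraries, which allows up to 0.404 to 0.617 CPM per library (6 counts, for counting error only).

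**Figure D1:**
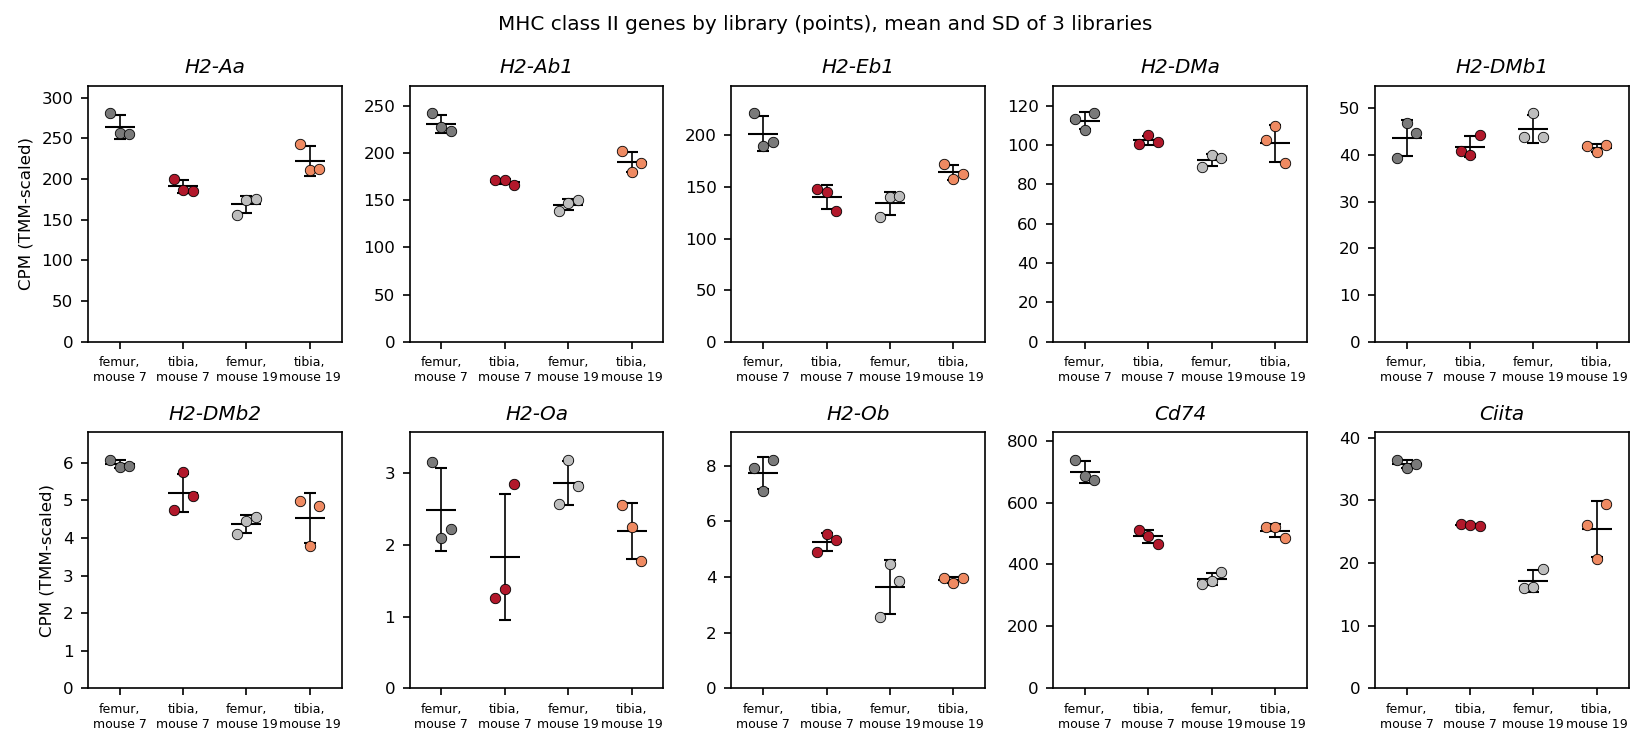
Level of each of the 10 genes in CPM (TMM-scaled) for femur and tibia of mouse 7 and of mouse 19. Points are libraries, and the bar and whiskers are the mean and SD of 3 libraries. For Cd74 the femur of mouse 7 was highest (672 to 738 CPM), the femur of mouse 19 lowest (337 to 376 CPM), and both tibias lay between (467 to 521 CPM).

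Averaged over both mice, no MHC class II member passed the test of treated tibia against untreated femur. With edgeR's quasi-likelihood test and the mouse as a term, 0 of 10 members passed an adjusted p (Benjamini-Hochberg) of 0.05, beside 3.51% of all tested genes called higher and 3.69% called lower. Members with an unadjusted p under 0.05 numbered 0, and DESeq2 and the edgeR fit on counts summed per mouse and bone also called 0. Without the filter on low counts, edgeR called 1 member, H2-Eb1, at a log2 fold change of -0.12 (adjusted p = 0.0471, against 0.509 with the filter). The log2 fold change was 0.00 for Cd74 (95% interval -0.23 to 0.24), -0.04 for H2-Aa (-0.25 to 0.16), -0.03 for H2-Ab1 (-0.23 to 0.16), 0.01 for Ciita (-0.26 to 0.27) and -0.01 for H2-DMa (-0.11 to 0.10). The largest estimates belonged to the DO genes, at -0.40 for H2-Oa (interval -0.86 to 0.05, adjusted p = 0.303) and -0.28 for H2-Ob (-0.59 to 0.03, adjusted p = 0.299). The median over the members was -0.06, beside -0.0021 over all tested genes.

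Within each animal the picture was different. In mouse 7 the tibia had less of H2-Aa, H2-Ab1, H2-Eb1, Cd74 and Ciita than the femur, and in mouse 19 it had more of the same 5 genes. In mouse 7, 5 of 10 members were called lower and 0 higher, beside 5.36% of all tested genes called lower and 4.37% called higher. In mouse 19, 5 of 10 were called higher and 0 lower, beside 2.96% of all tested genes called higher and 2.21% called lower. In bulk RNA, fewer cells of a type and less RNA per cell cannot be told apart.

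Cd74, on chromosome 18 from 60803848 to 60812652, had 738, 687 and 672 CPM in the 3 femur libraries of mouse 7 and 511, 493 and 467 CPM in its tibia libraries. In mouse 19 it had 337, 347 and 376 CPM in the femur and 521, 521 and 487 CPM in the tibia. All tibia libraries lay below all femur libraries in mouse 7 and above them in mouse 19. The invariant chain fell to 0.702 times the femur level in mouse 7 (log2 fold change -0.51, SE 0.04, edgeR adjusted p = 3.15e-09) and rose to 1.44 times it in mouse 19 (0.53, SE 0.04, adjusted p = 8.27e-10).

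H2-Aa, the A alpha chain, had 281, 257 and 255 CPM in the femur of mouse 7 and 201, 187 and 186 CPM in the tibia. The libraries of mouse 19 had 156, 175 and 176 CPM in the femur and 243, 211 and 212 CPM in the tibia. The bones did not overlap in either mouse. The change was -0.47 in mouse 7 (SE 0.05, adjusted p = 9.67e-07) and 0.39 in mouse 19 (SE 0.06, adjusted p = 1.37e-05), on the log2 scale.

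H2-Ab1, the A beta chain, had 242, 228 and 223 CPM in the femur of mouse 7 and 171, 172 and 166 CPM in the tibia. In mouse 19 the femur had 139, 147 and 151 CPM and the tibia 202, 180 and 190 CPM. Tibia and femur stood apart in both animals, in opposite order. The log2 change was -0.44 in mouse 7 (SE 0.05, adjusted p = 2.47e-07) and 0.39 in mouse 19 (SE 0.05, adjusted p = 2.01e-06).

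H2-Eb1, the E beta chain, had 221, 190 and 194 CPM in the femur of mouse 7 and 148, 146 and 127 CPM in the tibia. In mouse 19 it had 121, 140 and 142 CPM in the femur and 172, 158 and 163 CPM in the tibia. The bones again did not overlap within an animal. The log2 change was -0.52 in mouse 7 (SE 0.06, adjusted p = 1.36e-06) and 0.29 in mouse 19 (SE 0.06, adjusted p = 0.00487). Without femur library 1 of mouse 19, the lowest of its 3, the change in that mouse was 0.22 with an adjusted p of 0.0735.

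Ciita, the co-activator, had 36.5, 35.2 and 35.8 CPM in the femur of mouse 7 and 26.3, 26.0 and 25.8 CPM in the tibia. In mouse 19 it had 15.9, 16.2 and 19.1 CPM in the femur and 26.2, 20.6 and 29.5 CPM in the tibia. The tibia libraries of mouse 19 were spread wider than the other groups, and its lowest still lay above the highest femur library. The log2 change was -0.46 in mouse 7 (SE 0.10, adjusted p = 0.00236) and 0.57 in mouse 19 (SE 0.11, adjusted p = 9.11e-04). Part of an annotated Ciita exon overlaps Dexi on the other strand, and the labels do not give the strand setting of the counting.

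**Figure D2:**
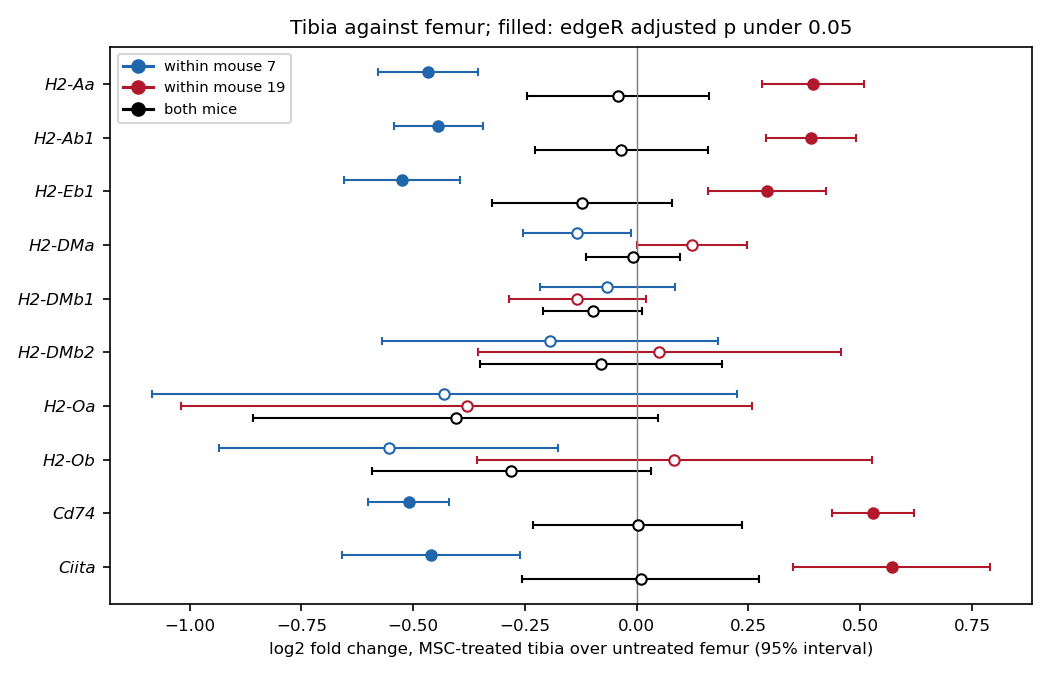
Log2 fold change of tibia over femur for each gene (x axis) within mouse 7, within mouse 19 and over both mice, with 95% intervals. Filled points have an edgeR adjusted p under 0.05. H2-Aa, H2-Ab1, H2-Eb1, Cd74 and Ciita are filled on opposite sides of 0 in the animals and lie near 0 for both mice together.

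The difference between the animals was tested as an interaction, the tibia-over-femur change in mouse 19 minus that in mouse 7. It was above 0 and past the threshold for 5 of 10 members, beside 2.89% of all tested genes called higher and 1.85% called lower. On the log2 scale the difference was 1.04 for Cd74 (SE 0.06, adjusted p = 3.86e-12), 1.03 for Ciita (SE 0.15, adjusted p = 2.46e-05), 0.86 for H2-Aa (SE 0.08, adjusted p = 1.28e-08), 0.83 for H2-Ab1 (SE 0.07, adjusted p = 3.46e-09) and 0.82 for H2-Eb1 (SE 0.09, adjusted p = 5.65e-07). With 1 animal on each side this describes these libraries, and an effect of the animal cannot be told apart from other differences between the 2 preparations. A fall in mouse 7 together with a rise in mouse 19, both called, was seen for 42 of the 11806 tested genes (0.356%), and these 5 members were among them. Libraries that stood fully apart in both mice, lower in the tibia of mouse 7 and higher in that of mouse 19, were seen for 173 genes (1.47%), among them the same 5 members.

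**Figure D3:**
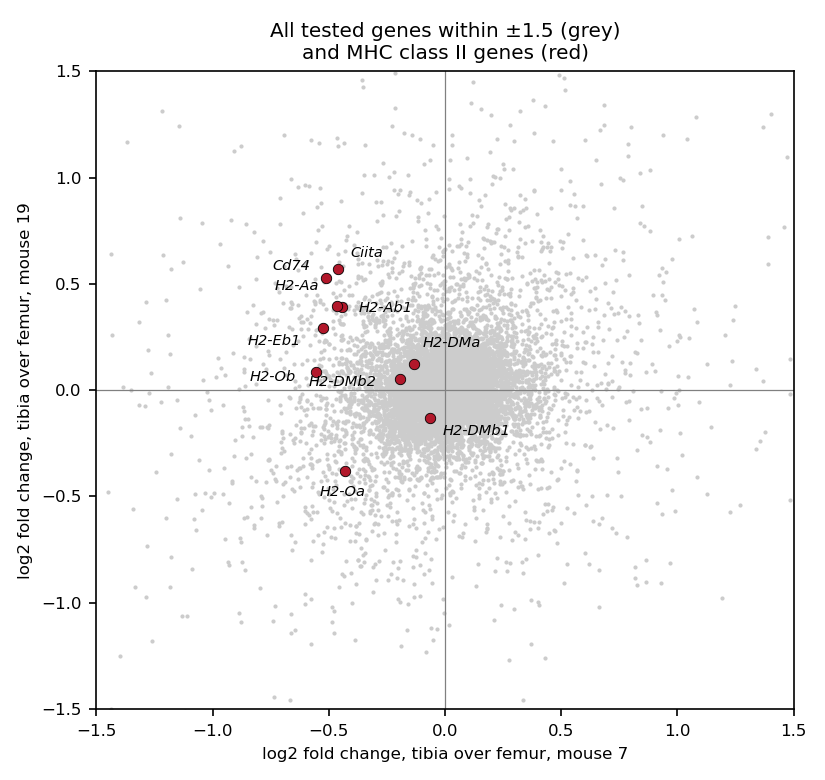
Log2 fold change of tibia over femur in mouse 7 (x axis) and in mouse 19 (y axis) for the tested genes within 1.5 of 0 (grey) and the 10 MHC class II genes (red). Cd74, Ciita, H2-Aa, H2-Ab1 and H2-Eb1 lie together at the upper left, lower in the tibia of mouse 7 and higher in that of mouse 19, and H2-DMb1 lies near the centre.

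None of the 5 DM and DO genes passed the threshold within either mouse or for the difference. H2-DMa had 113, 107 and 116 CPM in the femur of mouse 7 and 101, 105 and 101 CPM in the tibia. In mouse 19 it had 89.0, 94.95 and 93.4 CPM in the femur and 102, 109 and 90.7 CPM in the tibia. The bones stood apart in mouse 7 and overlapped in mouse 19, and neither change passed the threshold (log2 fold change -0.13, adjusted p = 0.163, and 0.12, adjusted p = 0.287). Leaving out 1 library moved the change in mouse 19 from 0.06 to 0.19, and it passed without tibia library 3 (adjusted p = 0.0479). The difference between the animals was 0.26 (95% interval 0.09 to 0.43, adjusted p = 0.0795), and it passed at 0.32 without tibia library 3 of mouse 19 (adjusted p = 0.015).

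H2-DMb1 ranged from 39.3 to 46.9 CPM in the femur and from 39.9 to 44.2 CPM in the tibia of mouse 7, where the bones overlapped. In mouse 19 its tibia libraries (40.6 to 42.2 CPM) all lay below its femur libraries (43.8 to 48.9 CPM). Its log2 change was -0.07 in mouse 7 (95% interval -0.22 to 0.09) and -0.13 in mouse 19 (-0.29 to 0.02), and the difference between the animals was -0.07 (-0.28 to 0.15, adjusted p = 0.842). That interval ends below the differences estimated for the 5 genes above. H2-DMb2 ranged from 5.89 to 6.08 CPM in the femur and from 4.75 to 5.76 CPM in the tibia of mouse 7, where the bones stood apart. In mouse 19 it ranged from 4.12 to 4.56 CPM and from 3.78 to 4.99 CPM, with overlap. Neither change passed, with wide intervals (-0.57 to 0.18 for mouse 7, -0.36 to 0.46 for mouse 19).

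Among the DO genes, H2-Ob had 7.93, 7.09 and 8.21 CPM in the femur of mouse 7 and 4.91, 5.54 and 5.33 CPM in its tibia. The values of mouse 19 were 2.57, 4.46 and 3.85 CPM in the femur and 3.98, 3.78 and 3.96 CPM in the tibia. The bones stood apart in mouse 7 only, where the log2 change of -0.55 missed the threshold (SE 0.19, adjusted p = 0.0558), and in mouse 19 it was 0.08 (SE 0.22). The difference of 0.64 had an adjusted p of 0.260. H2-Oa had between 1.27 and 3.19 CPM in all libraries, with 364 counts in total, and its changes of -0.43 (SE 0.32) and -0.38 (SE 0.31) did not pass in either animal. The bones overlapped in mouse 7 and stood apart in mouse 19, with the tibia lower, on 22 to 40 counts per library. The share of all genes whose bones stand apart within 1 mouse is not given here. Standing apart is thus only a description for the DM and DO genes. In mouse 7 the change ran from -0.90 without tibia library 3 to -0.23 without femur library 1. An antisense gene overlaps H2-Oa, so some of these reads could belong to it.

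Ratios within a library showed unequal change. H2-Aa and H2-Ab1, the partner chains of A, kept a count ratio between 1.09 and 1.21 in all libraries. The summed CPM of H2-Aa, H2-Ab1 and H2-Eb1 over that of H2-DMa was 6.21 ± 0.391 in the femur and 4.90 ± 0.238 in the tibia of mouse 7, and 4.85 ± 0.168 in the femur and 5.76 ± 0.647 in the tibia of mouse 19 (mean ± SD, n = 3 libraries). Cd74 over the same summed chains was 1.00 ± 0.0138 and 0.979 ± 0.00408 in femur and tibia of mouse 7, and 0.789 ± 0.0320 and 0.885 ± 0.0567 in those of mouse 19. The ratio of invariant chain to classical chains was thus lower in mouse 19 than in mouse 7 in every library, in both bones. These ratios are descriptions with no test.

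The animals already differed in the untreated femur. Against the femur of mouse 7, the femur of mouse 19 had lower levels of 7 of 10 members, with 0 higher, beside 14.3% of all tested genes called lower and 14.1% called higher. The log2 difference was -0.98 for Cd74 (SE 0.04, adjusted p = 2.20e-16), -1.06 for Ciita (SE 0.10, adjusted p = 2.87e-09) and -1.07 for H2-Ob (SE 0.20, adjusted p = 1.17e-04). It was -0.64 for H2-Aa, -0.67 for H2-Ab1, -0.59 for H2-Eb1 and -0.28 for H2-DMa (adjusted p = 6.25e-04 for H2-DMa and smaller for the other 3). H2-DMb1 showed 0.06 (95% interval -0.09 to 0.22). In the same femur comparison all 8 neutrophil markers (summed at 15886 to 17472 CPM in mouse 7 and 23652 to 27210 CPM in mouse 19) and all 6 granulocyte precursor markers were called higher in mouse 19, and 7 of 10 macrophage markers were called lower with 0 higher. Their part in the class II difference was not tested. These femur libraries also enter the contrasts within each mouse, so the values are not independent of them.

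In the treated tibias the animals were closer. A comparison added after the values had been seen found 3 of 10 members higher in mouse 19, beside 7.22% of all tested genes called higher and 6.77% called lower. The log2 difference was 0.22 for H2-Aa (SE 0.05, adjusted p = 0.00636), 0.17 for H2-Ab1 (SE 0.05, adjusted p = 0.0190) and 0.23 for H2-Eb1 (SE 0.06, adjusted p = 0.0130). None of these 3 calls held without tibia library 1 of mouse 19, and 1 held without tibia library 3 of mouse 7. Cd74 differed by 0.06 (95% interval -0.04 to 0.15) and Ciita by -0.03 (-0.24 to 0.17).

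**Figure D4:**
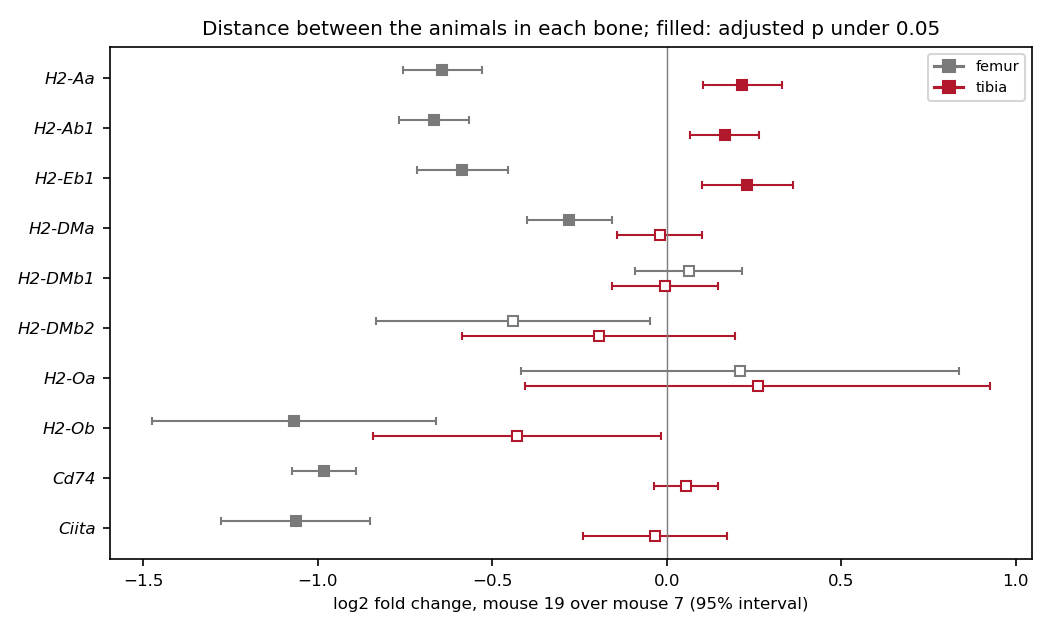
Log2 fold change of mouse 19 over mouse 7 (x axis) in the untreated femur (grey) and in the MSC-treated tibia (red), with 95% intervals and filled squares for an adjusted p under 0.05. Cd74 sits at -0.98 in the femur and 0.06 in the tibia, and Ciita at -1.06 and -0.03.

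The proteins that hold Ciita at class II promoters are encoded by Rfx5, Rfxap, Rfxank, Nfya, Nfyb, Nfyc and Creb1. All 7 were tested, and none was called over both mice, in mouse 7 or in the difference between the animals. In mouse 19, 1 of 7 was called lower, the NF-Y subunit Nfya (-0.17, adjusted p = 0.0252, named after its value was seen). Their median log2 difference between the animals was -0.03, beside 0.01 for all tested genes. For this list and those below, the shares of all tested genes called in each comparison are those given with the members above.

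Among regulators that act upstream of Ciita, 15 of 16 were found and tested. Over both mice 2 were called lower and 0 higher, among them Irf4, a lymphoid and myeloid transcription factor, at -0.32 (adjusted p = 0.0265). In mouse 7, 6 were called lower and 0 higher, and in mouse 19, 3 were called higher and 1 lower. The difference between the animals was called higher for 4 and lower for 1. It was 0.37 for Il10ra, the interleukin 10 receptor (adjusted p = 6.68e-05), 0.29 for Irf2 (adjusted p = 0.00929), 0.28 for Ifngr1, the interferon gamma receptor (adjusted p = 0.00157), and -0.31 for Irf8, a factor needed for monocytes and dendritic cells (adjusted p = 9.62e-04). The list's median difference was 0.21, beside 0.01 for all genes.

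Of 17 genes that interferon gamma is known to raise, 9 were called lower and 0 higher in mouse 7, and 0 were called in either direction in mouse 19 (edgeR). Over both mice 1 was called lower, Nlrc5, the class I counterpart of Ciita (-0.21, adjusted p = 0.00606). The difference between the animals was called higher for 5 and lower for 0, among them the T cell chemokines Cxcl9 (1.75, SE 0.35, adjusted p = 0.00208) and Cxcl10 (1.64, SE 0.33, adjusted p = 0.00180) and the GTPase Igtp (0.46, adjusted p = 0.0422). Cxcl9 was low throughout, at 7.77 ± 0.726 and 3.44 ± 0.822 CPM in femur and tibia of mouse 7 and 2.68 ± 1.09 and 3.98 ± 0.737 CPM in those of mouse 19. In the femur, 13 of 17 were lower in mouse 19 and 0 higher. In the tibia 10 of 17 were lower in mouse 19 and 0 higher. The part of interferon gamma in the class II result was not tested.

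Of the genes that prepare antigen for class II, 14 of 16 were tested. The proteases Ctsl and Lgmn, which cut antigen and the invariant chain, rose over both mice and in each. Ctsl was at 66.4 ± 6.78 and 93.6 ± 1.502 CPM in femur and tibia of mouse 7 and at 65.4 ± 2.88 and 107 ± 9.78 CPM in those of mouse 19, a pooled log2 change of 0.60 (SE 0.05, adjusted p = 6.46e-08). Lgmn rose by 0.26 in mouse 7 and by 0.80 in mouse 19, a difference of 0.54 (adjusted p = 1.64e-05). Ctss, the cathepsin that makes the last cuts in the invariant chain, differed between the animals by 0.35 (adjusted p = 1.17e-05). In all, 3 genes were called higher and 1 lower over both mice, the latter being Cybb, the oxidase subunit of the phagosome (-0.12, adjusted p = 0.0136). In mouse 7 there were 2 called higher and 1 lower, in mouse 19 there were 5 and 0, and for the difference 3 and 0.

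Of 10 costimulation genes, 2 were called lower and 0 higher over both mice, Cd83 (-0.51, adjusted p = 0.0209), which slows the turnover of class II at the surface, and Cd48, an adhesion ligand (-0.12, adjusted p = 0.0325). In mouse 7, 2 were called lower and 0 higher. In mouse 19, 1 was called higher and 0 lower. Icam1, the ligand of the T cell integrin LFA-1, differed between the animals by 0.42 (adjusted p = 0.0125), the 1 gene of the list called there. Of a list of 12 other genes in or near the class II region, 10 were tested. Of these, 0 were called in either direction over both mice, within either mouse or for the difference (edgeR). The list does not cover every gene there. Tap1, Tap2, Psmb8, Psmb9 and Tapbp were counted with the interferon gamma genes, and Tapbp was called lower in mouse 7 (-0.16, edgeR adjusted p = 0.00719). H2-Eb2, a further beta chain gene, was low at 0.975 to 2.74 CPM as group means and was called lower in the femur of mouse 19 than in that of mouse 7 (-1.43, adjusted p = 0.0253).

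By Pearson correlation of log2 CPM over the 12 libraries, the members closest to the mean of H2-Aa, H2-Ab1, H2-Eb1 and Cd74 outside those 4 were Ciita (r = 0.907), H2-DMa (0.803), H2-Ob (0.785) and H2-DMb2 (0.698). H2-Oa (-0.059) and H2-DMb1 (-0.278) did not follow it. Among 8507 genes with a mean of at least 10 CPM, the 5 non-members with the highest r were Gngt2 (0.952), Ndrg3 (0.948), Abi3 (0.934), Clec4a1 (0.929) and Plek (0.929). Gngt2 encodes a G protein gamma subunit, Clec4a1 a C-type lectin of myeloid cells and Plek a substrate of protein kinase C. Gngt2 stood at 92.0 and 70.2 CPM in femur and tibia of mouse 7 and at 64.3 and 74.5 CPM in those of mouse 19. The 12 libraries share 2 animals and 4 bones, so these r are descriptions with no p.

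Markers of other class II cells were summed per library. The 16 B cell markers gave 73.6 to 89.6 CPM in the femur and 58.5 to 68.2 CPM in the tibia of mouse 7, and 41.8 to 44.7 CPM in the femur and 46.7 to 49.7 CPM in the tibia of mouse 19. This sum followed the order of the class II levels in each pair of bones and was lower in the tibia of mouse 19 than in that of mouse 7. Of the 10 B cell markers tested, 2 were called lower in mouse 7 (Cd22 at -0.49 and Ms4a1 at -0.77), none was called in mouse 19 or for the difference, and 8 were lower in the femur of mouse 19. Pax5, a defining factor of the lineage, stood at 1.16, 1.02, 0.106 and 0.270 CPM as means of femur and tibia of mouse 7 and then of mouse 19. The part of B cells in the class II result was not tested.

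The 15 markers of conventional dendritic cells gave 192 to 204 CPM in the femur and 144 to 155 CPM in the tibia of mouse 7, and 194 to 204 CPM in the femur and 166 to 185 CPM in the tibia of mouse 19. This sum was lower in the tibia in both animals. Between the femurs, 4 of the 15 markers were called lower in mouse 19 and 2 higher, beside 14.3% and 14.1% of all tested genes. The part of dendritic cells in the class II result was not tested. Of the 15, 4 were called lower and 1 higher over both mice. In mouse 7, 6 were called lower and 1 higher, and in mouse 19, 2 lower and 0 higher. For the difference 2 were called higher, Cd209a (0.88, adjusted p = 0.0424) and Dpp4 (0.52, adjusted p = 0.0368), and 0 lower. Itgax (-0.34 and -0.32) and Cadm1 (-0.87 and -0.60) were called lower in the tibia of mouse 7 and of mouse 19. Between the femurs both were called higher in mouse 19 (0.46 and 0.86). Zbtb46, which defines the lineage, had group means of 0.601 to 0.838 CPM and Xcr1 0.438 to 0.991 CPM. The 10 markers of plasmacytoid dendritic cells gave 109 to 117, 93.1 to 99.1, 82.9 to 89.6 and 85.3 to 98.1 CPM in the same order of groups. Of the stromal, B cell and dendritic cell markers, 0 were at 0 counts in all 12 libraries, and the 10 stromal markers summed to 22.01 to 32.6 CPM.

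The 9 monocyte markers summed to 8590 to 8762 CPM in the femur and 8035 to 8273 CPM in the tibia of mouse 7, and to 7427 to 7640 CPM and 7453 to 7573 CPM in those of mouse 19. They did not move as 1 group: 0 were called higher and 4 lower in mouse 7, and 3 higher and 2 lower in mouse 19. Treml4, known for patrolling monocytes, changed by -0.45 in mouse 7 and 0.51 in mouse 19, with a difference of 0.96 (adjusted p = 5.45e-07). Ace, of the same cells, changed by -0.54 and 0.42, with a difference of 0.95 (adjusted p = 7.95e-08). Cx3cr1 fell by 0.32 in mouse 7 and was not called in mouse 19 (0.11, adjusted p = 0.224), with a difference of 0.43 (adjusted p = 1.18e-04). Nr4a1, a factor that patrolling monocytes need, was called in neither mouse (-0.0085 and 0.16), and Itgal fell in mouse 7 (-0.24) and stood at 0.0018 in mouse 19. The early monocyte genes Ly6c2 (-0.14) and F13a1 (-0.13) were called lower in mouse 19. The genes of this paragraph were named after their values were seen. Ace had 203 ± 16.3 and 140 ± 6.76 CPM in femur and tibia of mouse 7 and 63.7 ± 4.60 and 84.9 ± 8.18 CPM in those of mouse 19. Over all 9 markers the difference was called higher for 5 and lower for 1. Of the 10 macrophage markers, 2 were called higher and 3 lower in mouse 7, 6 higher and 0 lower in mouse 19, and 5 higher and 0 lower for the difference. Csf1r, the growth factor receptor of macrophages, fell by 0.14 in mouse 7 and rose by 0.21 in mouse 19 (difference 0.35, adjusted p = 2.16e-05). The 6 granulocyte precursor markers gave 716 to 748 CPM in the femur and 1028 to 1273 CPM in the tibia of mouse 7, and 1192 to 1488 CPM and 1463 to 1807 CPM in those of mouse 19. Of these 6, 5 were called higher and 0 lower in mouse 7 and 3 higher and 0 lower in mouse 19. For the difference 3 were called lower, Mpo (-0.61), Ctsg (-0.77) and Prtn3 (-0.39), and 0 higher. The part of monocyte subsets, macrophages and granulocyte precursors in the class II result was not tested.

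**Figure D5:**
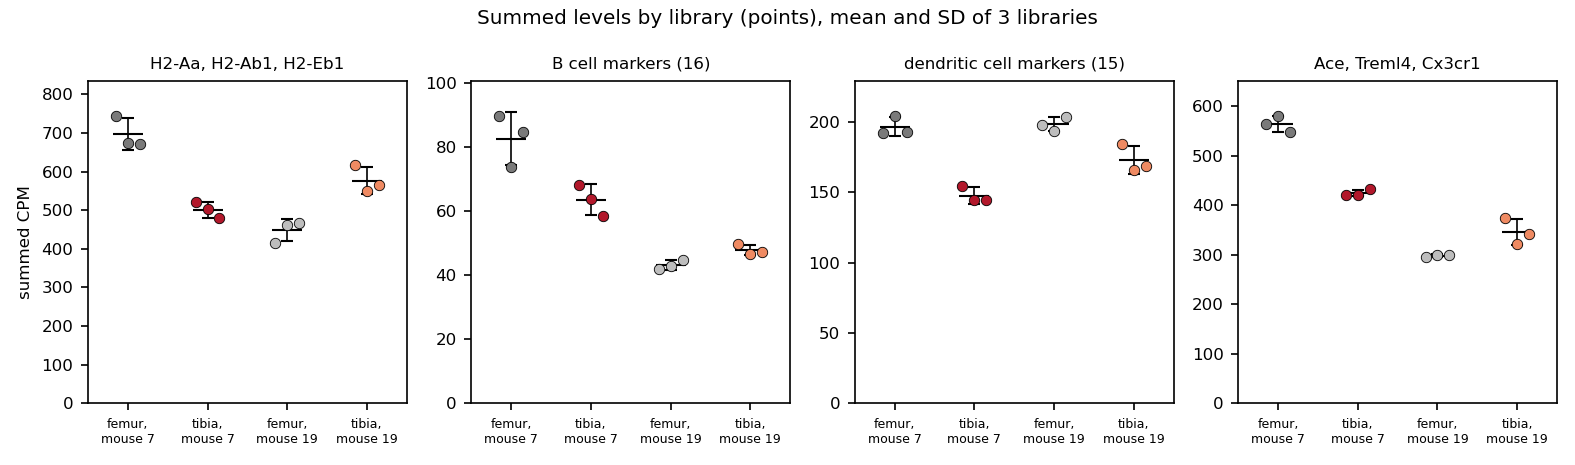
Summed CPM by library (points, with mean and SD of 3 libraries) of H2-Aa, H2-Ab1 and H2-Eb1, of the 16 B cell markers, of the 15 conventional dendritic cell markers and of Ace, Treml4 and Cx3cr1, a trio chosen after its values were seen. The classical chains and the trio are lower in the tibia of mouse 7 and higher in that of mouse 19, and the dendritic cell sum is lower in the tibia of both.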

How the data were processed

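RNA-seq of 12 macrophage libraries was analysed from 1 table of raw read counts per gene, deposited by the authors as unscaled whole numbers. The submitters' processing notes name the build mm10 and the tools HISAT2, bcl2fastq, Subread, featureCounts and DESeq2. The labels give neither their versions nor the annotation or strand setting. All 12 columns were matched to samples by title, with 0 left over. Among counts from 1 to 10, 69.8% were even, which fits counting of both mates of a fragment, so the floor for a count of 0 was set at 3 fragments (6 counts) and covers counting error only. Dates stood in place of 27 gene names, and 2 genes of the antigen processing list were not matched.

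Groups were mouse and bone, 3 libraries each. Libraries of 1 group differed beyond sampling noise (on halved counts, a chi-square of 1.37 to 3.13 per gene) and were kept apart. Genes were filtered with filterByExpr (minimum count 10 over the 4 groups), scaled by TMM and tested in R 4.3.3 with edgeR 4.0.16 (glmQLFit, glmQLFTest, two-sided), with Benjamini-Hochberg adjustment over 11806 genes and calls at an adjusted p under 0.05. Tibia against femur used the mouse as a term. Contrasts within a mouse, between mice and of the difference came from 1 mean per mouse and bone. The biological coefficient of variation was 6.26% and 5.51% in these models. The standard error is the absolute log2 change over the square root of F, and intervals are at 95%. CPM are counts over TMM-scaled library sizes, and lengths and gene positions come from GENCODE M21. The tests were run on simulated data first. Alternatives were DESeq2 1.42.0, its size factors, other filters, halved counts, sums per mouse and bone, no mouse term, a replicate block and leaving out each library.

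The members and gene lists were chosen with earlier results of these data known. Genes named from lists are up to 3 per direction with the largest log2 change among those called over both mice or for the difference between the mice, and the 5 genes most like the class II mean were taken by Pearson r. The comparison of the tibias between mice, and the alternatives for both comparisons between mice, were added after values were seen. Some genes of the lists are counted but not reported here by name.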

Additional observations from a re-analysis of the deposited data

Results flagged for a closer look

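The change from untreated femur to treated tibia differed between the 2 animals for 5 of the 10 genes by edgeR's interaction test. Of all tested genes, 2.89% were called higher and 1.85% lower for this difference. For each of the 5 members the level fell in mouse 7 and rose in mouse 19. The log2 difference was 1.03 for Ciita, 0.833 for H2-Ab1, 0.860 for H2-Aa, 0.816 for H2-Eb1 and 1.04 for Cd74, with adjusted p between 3.86e-12 and 2.46e-05. Each is a comparison of 1 animal with 1 animal over 12 libraries.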

How the results depend on the processing

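Within each mouse and for the difference between them, H2-Aa, H2-Ab1, H2-Eb1, Cd74 and Ciita kept their direction in all 18 alternatives, and their side of the threshold except H2-Eb1 in mouse 19 without femur library 1. The difference for Cd74 ran from 0.995 to 1.09 and for Ciita from 0.906 to 1.15. Library numbers did not pair the libraries (r of -0.0474 to 0.0618 over 18 same-numbered pairs). With a replicate block the members called were again 5 lower in mouse 7, 5 higher in mouse 19, 5 higher for the difference and 0 over both mice. Over all genes the block gave 563 lower in mouse 7, 308 higher in mouse 19 and 286 higher for the difference. H2-Ob, uncalled in mouse 7, was called with a filter of 5 CPM (adjusted p = 0.0392), with halved counts (0.0349) and without femur library 1 of mouse 19 (0.0472). H2-DMa was called for the difference with no filter (0.0496). Over both mice 1 member was called lower with no filter. The cause was not tested.

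Signs turned only for uncalled values near 0. Over both mice Cd74 was -0.0021 with halved counts and -0.0739 with no mouse term, and Ciita -0.0285 and -0.0491. Leaving out 1 library gave, over both mice, -0.117 to 0.0214 for H2-Aa, -0.0963 to 0.025 for H2-Ab1, -0.0438 to 0.0175 for H2-DMa, -0.0747 to 0.0854 for Cd74 and -0.0846 to 0.0768 for Ciita. In mouse 19 it gave -0.027 to 0.163 for H2-DMb2 and -0.0919 to 0.257 for H2-Ob. For the difference it gave -0.123 to 0.00098 for H2-DMb1 and -0.149 to 0.521 for H2-Oa, which was -0.0044 with halved counts. Between the femurs H2-DMb1 ran from -0.0062 to 0.118. Between the tibias H2-DMa ran from -0.0879 to 0.0419, H2-DMb1 from -0.0356 to 0.0405 and Ciita from -0.154 to 0.0860, and the members called higher from 0 to 3.

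Over all genes, both mice, the calls of 414 higher and 436 lower became 48 and 17 on sums per mouse and bone and 50 and 24 with no mouse term. Leaving out 1 library took the lower calls over both mice to as few as 279, those in mouse 7 to 314 higher and 381 lower, and those in mouse 19 to 226 higher and 116 lower. Sums leave no test within 1 mouse. H2-Oa was not tested under the filter of 5 CPM. Size factors of DESeq2 moved the median of all genes by under 0.01. H2-Oa, H2-DMb2 and H2-Ob rest on 364, 787 and 811 counts over all libraries.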

Other observations

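Among the 42 genes called lower in the tibia of mouse 7 and higher in that of mouse 19, Ifit3, an antiviral gene, differed between the animals by 1.61 on the log2 scale (adjusted p = 1.18e-04), Rtp4 by 1.29 (adjusted p = 7.93e-06), Gbp5 by 0.97 (adjusted p = 0.00111), Oas2 by 0.91 (adjusted p = 1.59e-08) and Oasl2 by 0.74 (adjusted p = 8.66e-07). The scavenger receptor Cd36 (1.26, adjusted p = 1.35e-04) and the lectins Clec4a1 (0.47, adjusted p = 1.27e-06) and Clec4a3 (0.48, adjusted p = 8.66e-06) were in the same set, as was the endosomal DNA sensor Tlr9 (0.48, adjusted p = 4.40e-04). The interferon gamma list holds other genes of the Gbp family but not Gbp5. None of its 17 genes was among the 42, since none was called in mouse 19. The genes named here were picked from the 42 after their values were seen, no enrichment was tested, and each value is edgeR's interaction estimate over 12 libraries from 2 animals.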
